A study of Homo sapiens with 6 samples.

Results

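The transcriptome described here is that of TC28a2 cells carrying a control vector, as 3 of the 6 libraries of a study of the transcription factor ZEB1 hold it. The members are the 3 libraries whose labels give the control vector as genotype, and a gene was called expressed where each of the 3 held at least 10 counts. By that rule 10812 of the 28395 genes in the table were expressed, or 38.1%. The other 3 libraries come from the same line carrying a vector that overexpresses ZEB1, and no value of theirs is used. All 3 control libraries came from TRIzol-extracted total RNA taken 48 h after transfection, prepared by DRUG-seq, a low-cost RNA-seq method made for many samples at once, and read on a NextSeq instrument. The labels give no untransfected cells and do not name the vector. Separate cultures are not stated for the 3 replicates, and their spread may be technical.

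TC28a2 is an immortalised line made from human chondrocytes, the cells that build and maintain cartilage. Chondrocytes in cartilage are known for type II collagen and aggrecan, which form most of the matrix around them, and for the factors SOX9, SOX5 and SOX6, which switch those genes on. Chondrocytes that divide on plastic are known to lose that matrix programme and to take on genes of fibroblasts, and in growth plates the last stage before bone is the hypertrophic chondrocyte, marked by type X collagen. The line is a single immortalised source, so its levels describe this line and not cartilage.

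The 3 libraries held 5832751, 5359200 and 5878640 counts in replicates 1, 2 and 3, with 15098, 15010 and 15302 genes at 1 count or more. Levels below are counts scaled to a common library total (CPM) after TMM scaling over the 3 control libraries, given as mean ± SD (n = 3). The labels name a 3 prime style method without giving the read position. How far counts depend on transcript length is therefore not known here. Across the 10669 expressed genes with a length, Spearman's rho with length was -0.14 for CPM and -0.53 for CPM per kilobase of transcript (CPM per kb), as a description over genes. CPM therefore did not rise with length across these genes. Ratios between genes are given on both scales, and a gap between the scales comes from the division by length. An order of genes by CPM is an order of counts only. A total of 3 counts stood for 0.503, 0.573 and 0.510 CPM in replicates 1, 2 and 3, which is the limit that a count of 0 allows in each library. That limit covers counting error only. No count was seen in any control library for 10886 genes, and 6697 had counts without meeting the rule. The 138 genes with exactly 10 counts in their lowest library had a median of 2.79 CPM, and the 135 genes just outside, with 9 counts there, a median of 2.64 CPM.

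The genes that took the most counts were those of general cell upkeep. GAPDH, a glycolytic enzyme, held 61978, 59610 and 62196 counts in replicates 1, 2 and 3, or 10782 ± 530 CPM. ACTB, cytoplasmic beta actin, held 45756, 39856 and 44956 counts, or 7641 ± 29.9 CPM. RPLP1, a protein of the ribosomal stalk, held 34015, 40077 and 37128 counts, or 6556 ± 999 CPM. ACTB was at nearly one level in the 3 libraries, while RPLP1 was highest in replicate 2. Next came EEF1A1, which brings tRNA to the ribosome, at 6007 ± 221 CPM, the chaperone HSP90AB1 at 5033 ± 531 CPM, and RPS18, a protein of the small ribosomal subunit, at 5032 ± 619 CPM. Of the 30 genes with the most CPM, 20 encode ribosomal proteins. The other 10 were GAPDH, ACTB, EEF1A1, HSP90AB1, the second cytosolic HSP90 gene HSP90AA1, the prolyl isomerase PPIA, the calcium-binding protein S100A6, the beta tubulin TUBB, the chaperone HSPA8 and the ferritin light chain FTL.

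Ribosomal protein genes differed from other expressed genes in the letters around their start as well as in their level, so the start sequences of 6 of them are shown with those of 4 others among the 30, with and without the feature described. Vertebrate ribosomal protein genes are known to begin transcription within a run of pyrimidines, the 5′ terminal oligopyrimidine (TOP) motif, through which translation of their mRNAs follows the growth signals of the cell. Each line gives 15 bases on each side of the RefSeq start (GRCh38.p14), 5′ to 3′ on the gene's own strand, with the longest run of C and T in capitals.
RPLP1: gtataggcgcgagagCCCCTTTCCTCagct
RPS18: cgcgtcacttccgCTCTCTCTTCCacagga
RPS19: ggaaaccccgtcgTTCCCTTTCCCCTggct
RPL35: agccccgcctaCTTCCTCTTTCCCTCggag
RPS21: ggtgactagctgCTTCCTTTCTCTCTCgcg
RPL15: ggcgctggggcctgctggaggagCTTCacg
EEF1A1: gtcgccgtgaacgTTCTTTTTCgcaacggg
TUBB: CCCTCTCCTTTCTCCCTCTCagaaccttcc
HSP90AB1: ccccgcaggtactccaCTCTCagtctgcaa
GAPDH: agcgggtgcaTCCCTgtccggatgctgcgc

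The RPLP1 window lies at chr15:69452803-69452832 on the plus strand, RPS18 at chr6:33272060-33272089 (plus), RPS19 at chr19:41860240-41860269 (plus), RPL35 at chr9:124861943-124861972 (minus), RPS21 at chr20:62387088-62387117 (plus) and RPL15 at chr3:23916530-23916559 (plus). EEF1A1 lies at chr6:73521018-73521047 (minus), TUBB at chr6:30720337-30720366 (plus), HSP90AB1 at chr6:44246179-44246208 (plus) and GAPDH at chr12:6535249-6535278 (plus). The capitals run for 11 bases in RPLP1 and RPS18, 13 in RPS19, 15 in RPL35 and RPS21, but 4 in RPL15. Outside the ribosomal proteins they run for 20 bases in TUBB, the longest of the 26 windows at hand among the 30 genes, for 9 in EEF1A1 and for 5 in HSP90AB1 and GAPDH. Of the 17 ribosomal protein genes among those 26, 12 held a run of 8 or more, and the 5 without one were RPL32, RPS15, RPL13, RPL15 and RPL36. A run of 8 or more C or T within that window was present in 48 of the 66 expressed ribosomal protein genes with a promoter entry, or 72.7%. The share was 12.7% among the other expressed protein-coding genes, 13.5% among those not expressed and 13.3% among all protein-coding genes. Expressed translation factor genes had it in 8 of 20. The window and the run length were chosen after these sequences had been seen. A match is only a description of letters, and the RefSeq start is not always the start a cell uses.

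Outside the ribosomal proteins the 300 bases around the start, from 250 before it to 50 after, differed mainly in CpG content between expressed and unexpressed genes. The other expressed protein-coding genes had a median of 27 CpG in that window and 65.8% G and C. Those not expressed had a median of 10 CpG and 58.0% G and C, and those with no count in any control library had 6 CpG and 54.7%. The letters TATAAA, searched on the gene's own strand from 40 to 16 bases before the start, were found in 1.52% of the other expressed genes, in 6.35% of those not expressed, and in 8.31% of those with no count. These are shares over genes and carry no test. Among genes other than ribosomal proteins with at least 1000 CPM, 5 of 57 with a promoter entry held TATAAA, or 8.77%.

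Counts were spread over many genes. The 10 most abundant genes took 5.80% ± 0.131 of all counts, the top 100 took 26.6% ± 0.995 and the top 1000 took 61.1% ± 0.858 (SD, n = 3). Of all genes, 8425 had a mean of at least 10 CPM, 1966 at least 100 CPM and 140 at least 1000 CPM. The median expressed gene stood at 28.1 CPM, with the 10th and 90th percentiles at 5.40 and 170.2 CPM. Protein-coding genes took 97.9% ± 0.045 of the counts, and 10305 of 19175 were expressed, or 53.7%. Of 4108 long noncoding RNA genes 232 were expressed, or 5.65%, and the class took 0.908% of the counts. The nuclear RNA MALAT1, with 13997, 9614 and 12113 counts in replicates 1, 2 and 3, was the largest single member of the class by counts, at 2080 ± 256 CPM.

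**Figure D1:**
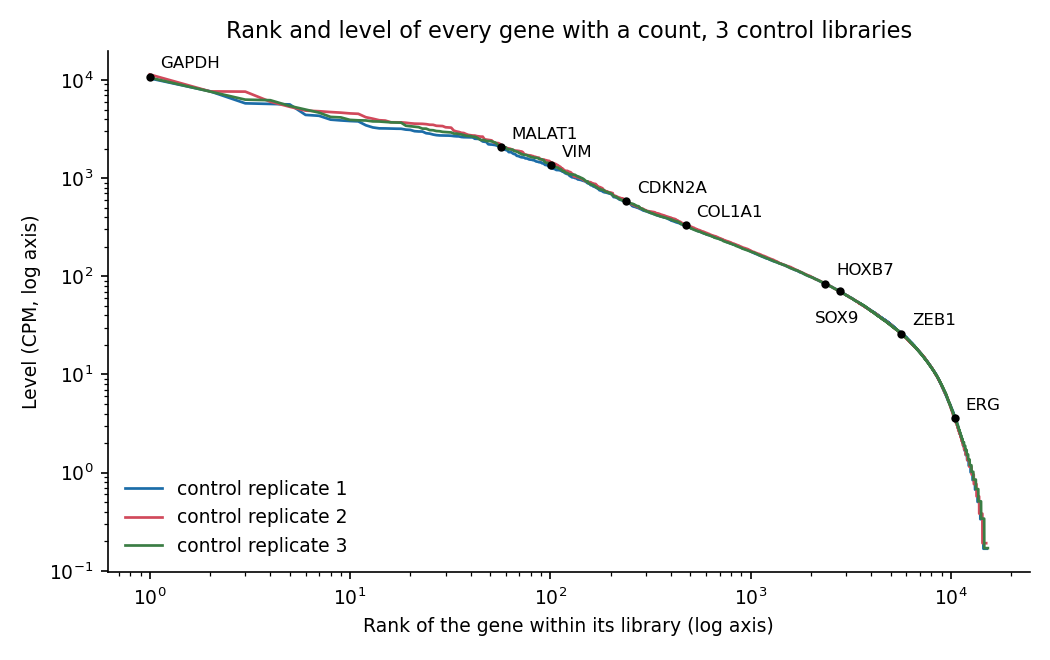
Level of each gene in CPM (log axis) against its rank within the library (log axis), with 1 line for each control library and dots at the mean CPM of 9 named genes. The lines nearly coincide from about the level of CDKN2A (585 CPM) downward and part among the most abundant genes, where replicate 2 runs highest.

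The labelled cell type was checked first against cartilage matrix, and its defining genes were absent. None of the 24 cartilage matrix genes was expressed, against 53.7% of protein-coding genes as a whole. COL2A1, type II collagen, held 3, 0 and 8 counts in replicates 1, 2 and 3, and ACAN, aggrecan, held 7, 0 and 6. The type XI collagen chains COL11A1 and COL11A2 held 0, 0 and 4 and 1, 0 and 0 counts, and the link protein HAPLN1, which ties aggrecan to hyaluronan, 0, 0 and 2. COMP, a matrix protein that binds collagen, and PRG4, the joint lubricant lubricin, each held 1 count in replicate 3 alone. No count was seen in any control library for COL9A1, MATN1, CHAD, CILP, CNMD, EPYC, FMOD, PRELP or MIA. The largest count of any member in any library was 12, and the 24 genes together came to 4.86, 5.35 and 9.35 CPM. Beside them VIM, the intermediate filament protein of mesenchymal cells, reached 1248, 1453 and 1340 CPM. These 24 matrix genes alone did not bear out the label of chondrocyte, while part of the regulators, given next, were expressed. The cells are called TC28a2 cells here.

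The regulators of that programme were present in part. SOX9 held 338, 356 and 508 counts in replicates 1, 2 and 3, or 70.3 ± 15 CPM, lowest in replicate 1 and highest in replicate 3. Of its partners, SOX5 had no count in any library and SOX6 held 0, 7 and 0. Of 18 chondrocyte regulators 8 were expressed, or 44.4% against the 53.7% of all protein-coding genes. Besides SOX9 these were the forkhead factor FOXC1 at 19.7 ± 3.37 CPM, the ubiquitin ligase WWP2 at 16.7 ± 3.01, TRPS1 at 13.1 ± 1.56, PTHLH, which encodes the hormone that delays hypertrophy, at 8.32 ± 0.906, ZNF219 at 6.22 ± 1.90, the receptor FGFR3 at 5.79 ± 0.298 and ERG at 3.60 ± 0.646. The receptor for the PTHLH product, PTH1R, held 0, 4 and 5 counts. NKX3-2, MEF2C, IHH and SCRG1 had no count. The growth factor GDF5, which marks joint-forming cells, held 5, 5 and 11 counts.

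Genes of the hypertrophic and mineralising stages were likewise divided. The type X collagen gene COL10A1, the stage's defining matrix gene, had no count, and neither did IBSP, BGLAP, PANX3 or DMP1. Of 16 genes on that list 6 were expressed, or 37.5%, also under the 53.7% of protein-coding genes. RUNX3, a runt-domain factor, held 640, 584 and 634 counts, or 109 ± 2.33 CPM, and its relative RUNX2, the main driver of hypertrophy, held 37, 88 and 44, or 10.2 ± 5.79 CPM. RUNX3 was level across the libraries, while RUNX2 was highest in replicate 2. MMP13, the collagenase of hypertrophic cartilage and of osteoarthritis, held 183, 147 and 169 counts, or 29.2 ± 1.36 CPM. The pyrophosphate transporter ANKH was at 30.4 ± 4.20 CPM and ENPP1 at 7.68 ± 1.49 CPM.

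Fibroblast and mesenchymal genes were expressed in 18 of 24 cases, or 75%, against 53.7% of all protein-coding genes. Fibronectin, FN1, held 5306, 4262 and 5486 counts, or 879 ± 59.8 CPM, and N-cadherin, CDH2, held 2344, 1954 and 2526, or 398 ± 28.4 CPM. The matrix-binding protein SPARC stood at 218 ± 12.3 CPM, TAGLN, an actin-binding protein, at 168 ± 18.4 CPM and THY1, a surface marker of fibroblasts, at 127 ± 3.02 CPM. Several genes that usually mark fibroblasts were nonetheless near 0. The receptor PDGFRA held 0, 6 and 2 counts, the small proteoglycans DCN and LUM held 1, 4 and 0 and 8, 13 and 1, and MFAP5 held 0, 2 and 2. PDGFRB, the other PDGF receptor, was expressed at 25.6 ± 2.76 CPM. The cadherins differed within the class, since CDH2 had 92.0 CPM per kb against 3.62 for the fibroblast cadherin CDH11, a ratio of 25.8 ± 2.78 (SD, n = 3) per kb and 16.1 by CPM.

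**Figure D2:**
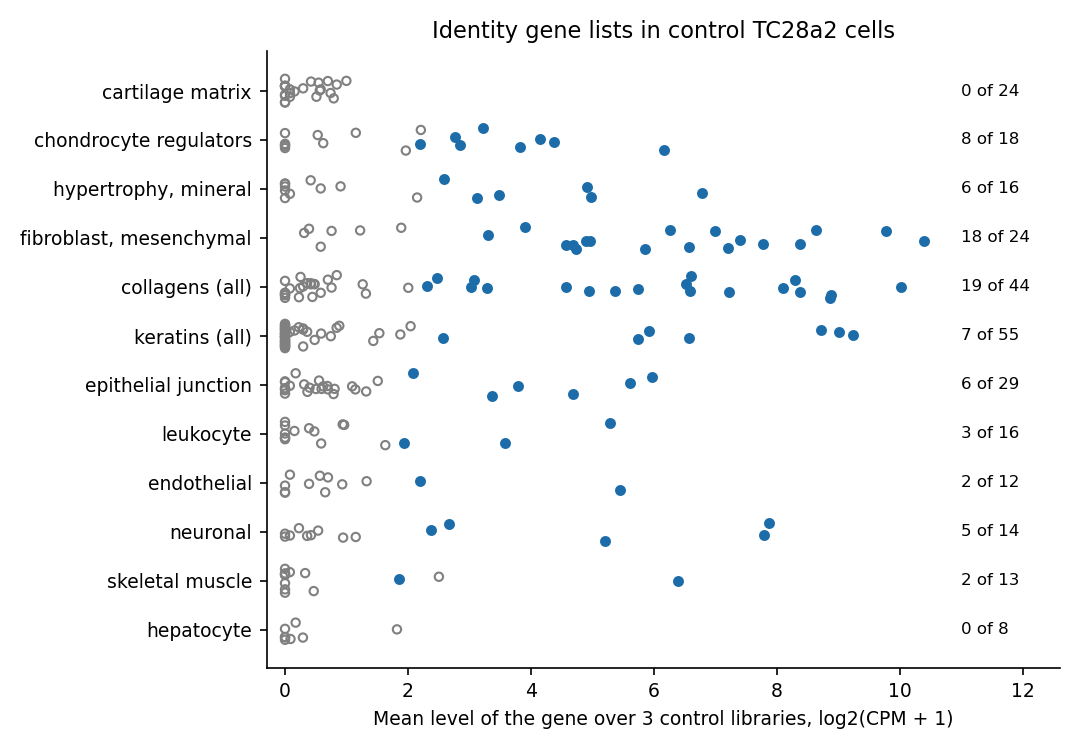
Mean level over the 3 control libraries, as log2(CPM + 1), of each gene on 12 lists that mark cell types or families. Filled dots are expressed genes, open dots are genes under 10 counts in at least 1 library, vertical scatter is only for display, and the count at the right gives expressed over listed genes. No cartilage matrix gene (0 of 24) reaches the level of the expressed genes, and 18 of 24 fibroblast genes do.

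Collagen transcripts came mostly from a few types. Of 44 collagen chains 19 were expressed, or 43.2%, against 53.7% of all protein-coding genes. The 44 together came to 3769, 3360 and 3387 CPM in replicates 1, 2 and 3. The 3 chains of type VI collagen, the beaded filament around cells, were the ones with the most counts. COL6A1 held 6576, 5234 and 5914 counts, or 1036 ± 58.0 CPM, COL6A3 stood at 469 ± 55.7 CPM and COL6A2 at 464 ± 80.1 CPM. Per kb of transcript COL6A1 was 1.85 ± 0.237 times COL6A2 and 5.65 ± 0.585 times COL6A3, and each ratio was above 1 in all 3 libraries. By CPM the ratios were 2.23 and 2.21, so COL6A2 and COL6A3 had nearly the same counts. The gap between these 2 chains per kb comes from the division by length. The basement membrane pair COL4A1 and COL4A2, which lie head to head and are made together, stood at 314 ± 40.9 and 275 ± 2.31 CPM, and per kb their ratio was 1.12 ± 0.143, within its spread of 1, with 1.14 by CPM. COL7A1, the anchoring fibril collagen of skin, reached 148 ± 19.4 CPM, and COL5A2, which helps to start type I fibrils, 96.0 ± 1.20 CPM.

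Type I collagen, the main fibre of bone and skin, is built from COL1A1 and COL1A2 in a fixed proportion, and only the first was seen at level. COL1A1 (chr17:50184101-50201631, GRCh38.p14) held 2105, 1774 and 1743 counts, or 329 ± 29.6 CPM. COL1A2 (chr7:94394895-94431227) held 5, 2 and 5 counts, or 0.690 ± 0.267 CPM, at about the limit of detection. Summed over the 3 libraries the 5622 counts of COL1A1 were 468.5 times the 12 of COL1A2, with an exact 95% interval of 268 to 907 for counting error alone. Per kb of transcript the ratio was 377, with an interval of 216 to 730. No exon of another gene overlaps COL1A2 in the annotation used. This pair was singled out after its values had been seen.

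Of the proteases and inhibitors of the matrix, the inhibitor TIMP1 had the most counts. Of 23 matrix metalloproteinase genes 9 were expressed, or 39.1%, against 53.7% of all protein-coding genes. Of 4 TIMP genes 3 were. TIMP1 held 6581, 6736 and 6890 counts, or 1187 ± 92.6 CPM, TIMP2 stood at 144 ± 9.58 CPM and TIMP3, the matrix-bound inhibitor, at 69.8 ± 9.0 CPM. The gelatinase MMP9 held 1970, 1641 and 1911 counts, or 323 ± 8.6 CPM, and the interstitial collagenase MMP1 held 1439, 1250 and 1755, or 259 ± 33.6 CPM. Per kb these 2 proteases did not differ beyond their spread, at a ratio of 1.06 ± 0.125 (1.24 by CPM), while MMP9 had 0.104 ± 0.0107 times the level of TIMP1 (0.272 by CPM). MMP1 had 12.3 ± 1.81 times the level of MMP13 per kb and 8.90 times by CPM. MMP2, the other gelatinase, reached 48.3 ± 6.63 CPM. Both aggrecanases tied to osteoarthritis were at the bottom of the range, as ADAMTS4 had no count and ADAMTS5 held 3, 0 and 13. Of 19 ADAMTS genes 4 were expressed, or 21.1%. These were ADAMTS12 at 30.05 ± 4.11 CPM, ADAMTS1 at 29.99 ± 13.4, ADAMTS6 at 23.2 ± 2.17 and ADAMTS9 at 2.58 ± 0.0837. ADAMTS1, with 195, 81 and 246 counts, was lower in replicate 2 than in the other libraries.

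**Figure D3:**
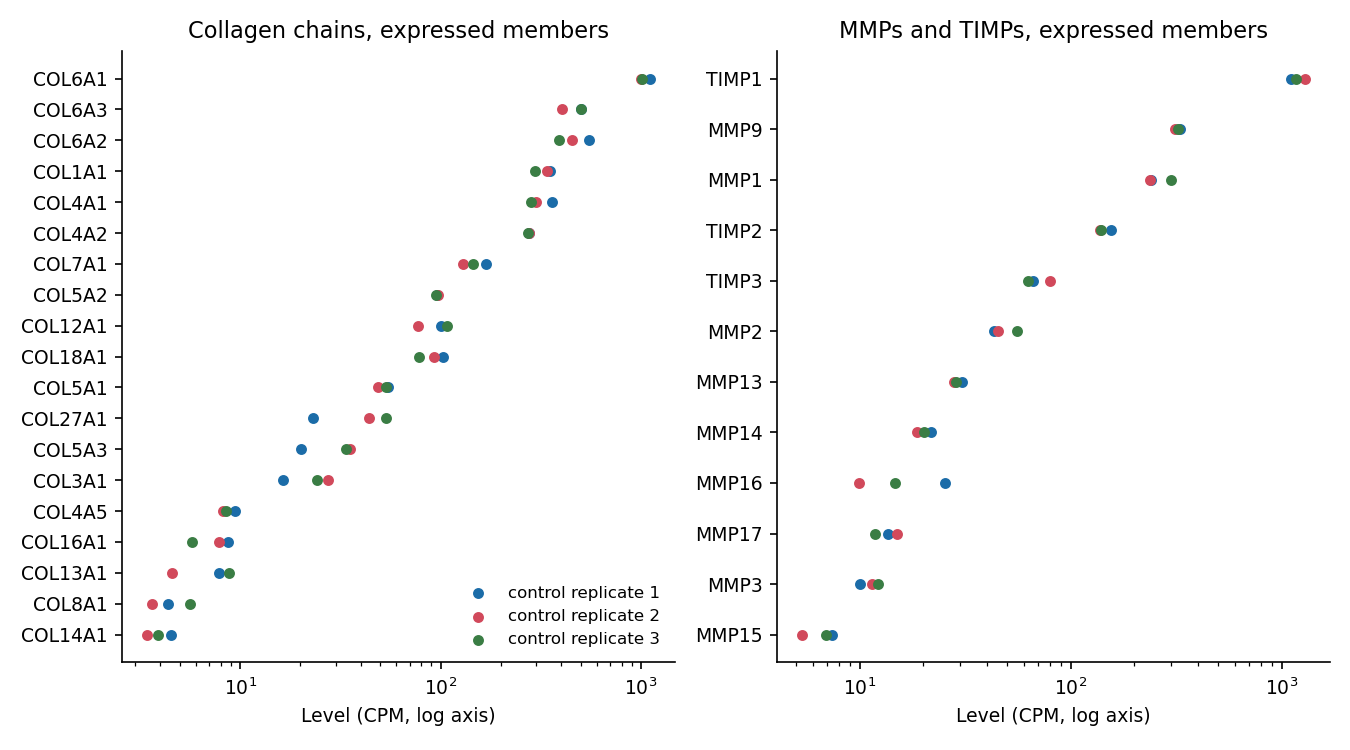
Level in CPM (log axis) of the 19 expressed collagen chains and the 12 expressed MMP and TIMP genes, with 1 point for each control library. The chains of type VI collagen and TIMP1 lie at the top of their panels, and COL27A1 and MMP16 show the widest gaps between libraries among genes above 10 CPM.

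Surface receptors for matrix included those of fibronectin, laminin, collagen and hyaluronan. CD44, the hyaluronan receptor, held 3481, 3063 and 3546 counts, or 590 ± 10.5 CPM. Of 26 integrin genes 13 were expressed, a share close to that of all protein-coding genes (53.7%). ITGA3, a laminin receptor chain, stood at 447 ± 38.3 CPM, ITGB1, the common beta chain, at 312 ± 32.0 CPM and ITGA5, the fibronectin receptor chain, at 253 ± 10.1 CPM. ITGA2, a collagen receptor chain, and ITGAV followed at 87.9 ± 25.9 and 80.2 ± 11.6 CPM. Proteoglycan cores were expressed in 10 of 16 cases, or 62.5%. Among them were the syndecan SDC4 at 309 ± 34.4 CPM, agrin (AGRN) at 188 ± 22.8 CPM, the glypican GPC1 at 171 ± 23.7 CPM and serglycin (SRGN) at 151 ± 9.83 CPM. Of 27 genes for synthesis of their sugar chains 21 were expressed, or 77.8%, so most of that machinery was present without the cartilage core protein ACAN.

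Epithelial character was checked because the study concerns ZEB1, a repressor of epithelial genes. Of 29 epithelial junction genes 6 were expressed, or 20.7%, under the 53.7% of all protein-coding genes. E-cadherin, CDH1, held 0, 4 and 5 counts, EPCAM held 2, 10 and 0, and ESRP1, an epithelial splicing factor, held 4, 1 and 0. Among the 6 were DSP (desmoplakin) at 61.9 ± 30.03 CPM, the scaffold protein TJP1 at 47.9 ± 8.16, F11R at 12.9 ± 1.21, JUP at 9.29 ± 2.39 and OCLN at 3.22 ± 0.486. DSP held 575, 251 and 244 counts, so that replicate 1 stood apart from the other 2 libraries. Of the 12 factors that drive epithelial to mesenchymal transition 8 were expressed, or 66.7%. TCF4 led with 33.6 ± 5.49 CPM, followed by SNAI1 at 32.3 ± 7.40, TWIST2 at 26.1 ± 1.86, ZEB1 at 26.0 ± 6.95 and ZEB2 at 25.1 ± 7.04. ZEB1 held 203, 114 and 131 counts, highest in replicate 1, and ZEB2 held 188, 92 and 154.

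A few keratins were at levels close to those of mesenchymal genes. Of 55 keratin genes 7 were expressed, or 12.7%, against 53.7% of all protein-coding genes, and 32 had no count in any library. KRT18 held 3596, 3202 and 3477 counts, or 602 ± 10.5 CPM, and its usual filament partner KRT8 held 2509, 2401 and 2209, or 418 ± 41.7 CPM. VIM had 1.64 ± 0.113 times the level of KRT18 per kb, and KRT18 had 1.97 ± 0.164 times that of KRT8, or 2.24 and 1.44 times by CPM. KRT81, a hair keratin, held 2732, 2968 and 3061 counts, or 515 ± 54.6 CPM. KRT86, its close neighbour and near copy, stood at 4.93 ± 1.20 CPM, and counts may be split between such copies. KRT10, KRT80 and KRT7 followed at 93.5 ± 8.29, 59.6 ± 1.70 and 52.8 ± 7.66 CPM. KRT5, KRT6A and KRT19 had no count and KRT14 held 1, 0 and 0, so the keratins of basal skin were not among them.

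HOX transcripts came from the HOXB and HOXC clusters. HOX genes lie in 4 clusters and are known to keep a record of position along the body axis in cells of mesenchymal origin. Of 39 HOX genes 15 were expressed, or 38.5%, against 53.7% of all protein-coding genes. In the HOXB cluster 8 of 10 genes were expressed and in HOXC 7 of 9, while 0 of 11 were in HOXA and 0 of 9 in HOXD. Summed counts over all members were 2695 and 1853 for HOXB and HOXC, against 106 for HOXA and 4 for HOXD. HOXB7 (chr17:48607232-48611017) led, with 397, 459 and 577 counts, or 84.1 ± 16 CPM. HOXC8 (chr12:54008985-54012769) held 215, 144 and 228 counts, or 34.1 ± 5.87 CPM, and HOXC9 held 159, 140 and 136, or 25.5 ± 2.07 CPM. The expressed members of the first cluster also took in HOXB2 at 23.3 ± 4.07 CPM, HOXB4 at 18.6 ± 3.63, HOXB3 at 9.71 ± 2.36, HOXB13 at 6.75 ± 1.76, HOXB6 at 5.68 ± 1.47, HOXB5 at 4.79 ± 0.225 and HOXB9 at 4.46 ± 1.27. In the other they took in HOXC4 at 14.98 ± 4.87 CPM, HOXC6 at 13.0 ± 2.55, HOXC10 at 8.61 ± 2.41, HOXC13 at 7.27 ± 0.657 and HOXC11 at 3.15 ± 2.40. HOXC11 held 11, 31 and 10 counts and without replicate 2 its mean was 1.79 CPM. Library by library, HOXB summed to 135, 166 and 173 CPM and HOXC to 104, 108 and 114 CPM, and in HOXA the sums were 3.52, 8.40 and 6.97 CPM.

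**Figure D4:**
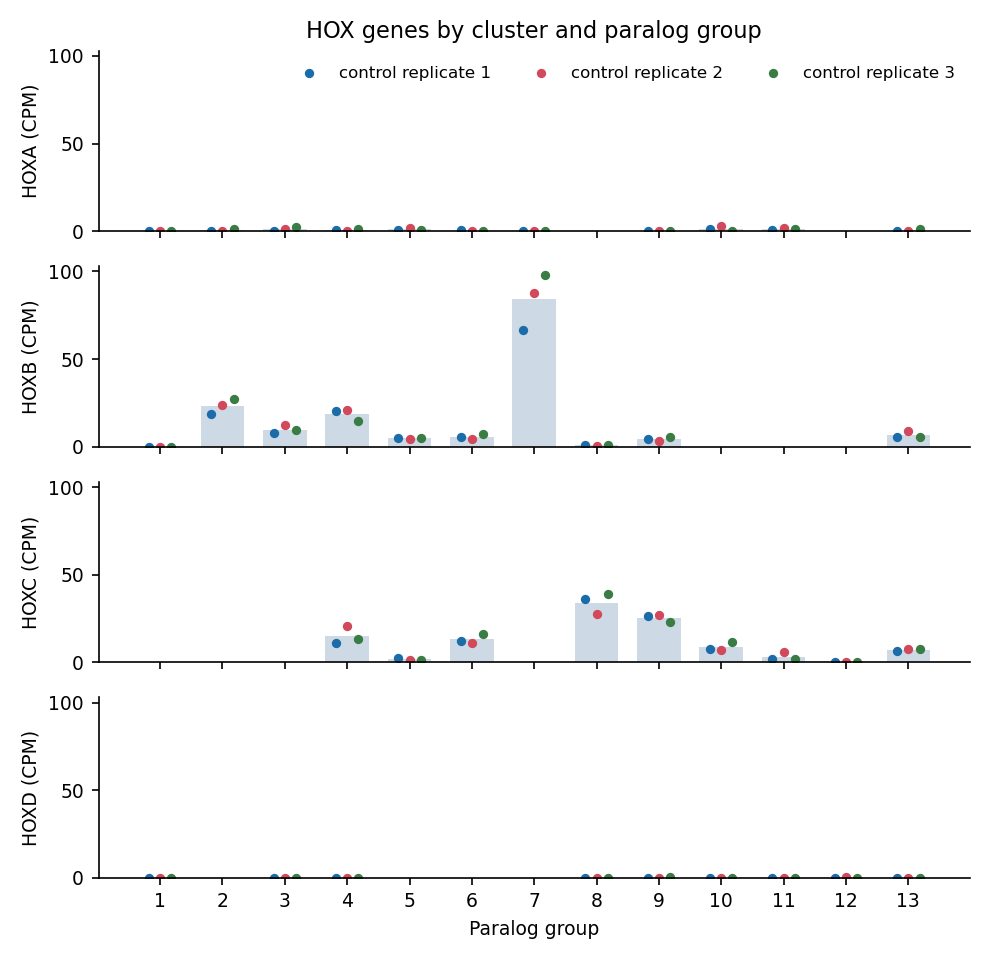
Level in CPM of each HOX gene in the 4 clusters, ordered by paralog group, with bars for the mean of the 3 control libraries and points for the single libraries. HOXB and HOXC hold every bar that can be seen, with HOXB7 the tallest at 84.1 CPM, and HOXA and HOXD lie at the baseline.

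The SOX, T-box, PAX and forkhead families had expressed shares of 26.3%, 28.6%, 11.1% and 38.6%. All were under the 53.7% of protein-coding genes. Of 19 SOX genes outside the Y chromosome 5 were expressed, with SOX4 at 107 ± 15.6 CPM, SOX9, SOX12 at 40.4 ± 2.11 CPM, SOX13 at 8.55 ± 4.62 CPM and SOX7 at 7.41 ± 2.17 CPM. Per kb SOX4 and SOX9 did not differ beyond their spread, at a ratio of 1.05 ± 0.240, while by CPM the ratio was 1.52. Of 14 T-box genes 4 were, TBX3 at 61.0 ± 7.95 CPM, TBX2 at 26.8 ± 2.99, TBX1 at 10.6 ± 3.77 and TBX18 at 7.76 ± 2.15. PAX6 alone of 9 PAX genes passed, at 5.42 ± 1.94 CPM. Of 44 forkhead genes 17 passed, led by FOXM1, the factor of the mitotic programme, at 223 ± 16.8 CPM, then FOXP1 at 120 ± 9.85, FOXD1 at 93.0 ± 2.65, FOXO3 at 73.9 ± 6.24 and FOXK2 at 50.7 ± 2.91.

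Genes of the dividing cell were expressed nearly throughout, and cell cycle inhibitors were present beside them. Of 50 cell cycle genes 47 were expressed. TOP2A, the topoisomerase of dividing cells, held 6069, 4801 and 5822 counts, or 975 ± 51.9 CPM, UBE2C, which helps destroy cyclins, 853 ± 36.1 CPM, CENPF 588 ± 96.5 CPM and MKI67, the proliferation marker, 567 ± 82.0 CPM. Ranked by CPM among all genes, TOP2A stood at place 142, UBE2C at 162 and MKI67 at 246. TYMS, the thymidylate synthase, was among the 3 not expressed, with 2, 4 and 7 counts, and is taken up again below. CDKN2A (chr9:21967752-21995324), whose transcripts encode the inhibitor p16 and, from another start, ARF, held 3067, 3469 and 3406 counts, or 585 ± 74.4 CPM. Gene counts do not tell its transcripts apart. CDKN1A, which encodes p21, stood at 113 ± 22.7 CPM, and per kb CDKN2A had 9.37 ± 2.27 times the level of CDKN1A and 312 ± 86.8 times that of its neighbour CDKN2B, against 5.16 and 96.3 times by CPM. HMGB1 and HMGB2, chromatin proteins that senescent cells are known to lose, stood at 1178 ± 12.1 and 447 ± 45.1 CPM. TERT, the catalytic part of telomerase, held 0, 0 and 2 counts. The series concerns senescent cells. On the list of inhibitors and senescence genes 21 of 22 were expressed, or 95.5%, against 53.7% of all protein-coding genes. That list includes HMGB1, named above as lost in senescence, so its share is no measure of senescence. Cell cycle genes had a like share, 94.0%.

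Growth factor receptors of the tyrosine kinase class were expressed in 26 of 51 cases, or 51.0%, near the 53.7% of all protein-coding genes. AXL held 1570, 1130 and 1291 counts, or 233 ± 26.4 CPM, EPHA2 175 ± 14 CPM, FGFR1 149 ± 16.2 CPM and RYK, a Wnt co-receptor, 110 ± 9.61 CPM. IGF2R, listed with them although it has no kinase, stood at 163 ± 4.29 CPM. EGFR was low, with 52, 50 and 82 counts, and AXL had 47.4 ± 15 times its level per kb and 21.7 times by CPM. Of 33 ligands of such receptors 16 were expressed, or 48.5%, also near that share. Midkine (MDK) stood at 165 ± 14 CPM, VEGFA at 148 ± 15.4, the AXL ligand GAS6 at 141 ± 3.74, HBEGF at 66.0 ± 3.89 and VEGFC at 65.3 ± 4.35.

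In the TGF-beta and BMP families 8 of 17 ligands, 10 of 14 receptors, 9 of 14 antagonists and 5 of 6 SMAD genes were expressed. These shares were 47.1%, 71.4%, 64.3% and 83.3%, against 53.7% of all protein-coding genes. INHBA, the activin A subunit, held 1888, 1483 and 1623 counts, or 292 ± 21.7 CPM, and TGFB1 1145, 803 and 1026, or 173 ± 19.3 CPM. The BMP antagonist GREM1 stood at 230 ± 31.8 CPM, FSTL1 at 146 ± 4.76 CPM and SMAD3, which carries the TGF-beta and activin signal, at 71.8 ± 6.27 CPM. INHBA had 14.4 ± 2.30 times the level per kb, and 34.2 times the CPM, of FST, which encodes the activin antagonist follistatin. Of Wnt genes 4 of 19 ligands (21.1%) and 8 of 12 receptors (66.7%) were expressed. The receptor FZD2 stood at 105 ± 9.95 CPM, the antagonist SFRP1 at 81.1 ± 9.34 CPM and the ligand WNT5A at 77.3 ± 4.78 CPM. DKK1, another antagonist, reached 45.9 ± 9.80 CPM and DKK3 36.5 ± 9.64 CPM. CTNNB1, beta catenin, which transmits the canonical signal, held only 13, 2 and 11 counts. In the Notch family the target HES1 led at 207 ± 25.7 CPM, above NOTCH2 at 43.2 ± 2.86, NOTCH1 at 33.8 ± 10.8, DLL3 at 23.8 ± 3.39 and JAG1 at 16.2 ± 8.05 CPM, all on the CPM scale without regard to length. None of the 3 hedgehog ligands SHH, IHH and DHH had a count, though the signal transducer SMO (22.1 ± 4.12 CPM), HHIP (21.7 ± 2.57 CPM) and GLI3 (12.5 ± 2.87 CPM) were expressed.

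Among cytokines 14 of 35 genes were expressed, and among their receptors 28 of 39. IL11, a cytokine of the IL6 family, held 396, 435 and 540 counts, or 80.4 ± 12.9 CPM, LIF of the same family stood at 45.9 ± 2.58 CPM and the neutrophil chemokine CXCL8 at 43.6 ± 11.8 CPM. CCL2 and IL32 followed at 33.1 ± 5.18 and 31.6 ± 10.3 CPM. On the receptor side the TWEAK receptor TNFRSF12A held 2355, 2087 and 2325 counts, or 396 ± 2.11 CPM, and the TNF receptor TNFRSF1A stood at 148 ± 11.15 CPM. IFNGR2, IL6ST and IFNAR1 were at 111 ± 5.62, 85.1 ± 17.0 and 63.1 ± 3.05 CPM. TNFRSF1A had 41.5 ± 5.69 times the level of the IL1 receptor IL1R1 per kb and 17.6 times by CPM. Of class I antigen presentation genes 10 of 11 were expressed, or 90.9%, among them B2M at 785 ± 82.9 CPM and TAPBP at 263 ± 19.4 CPM. Of class II genes 1 of 6 was, or 16.7%.

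Mechanical sensing matters to cartilage, which works under load. Of 21 channel genes on that list 13 were expressed, or 61.9%, beside 53.7% of all protein-coding genes. PIEZO1, a stretch-activated channel, held 953, 809 and 950 counts, or 159 ± 3.61 CPM, and the potassium channel KCNMA1 reached 151 ± 18.5 CPM. PIEZO2 stood at 29.6 ± 3.63 CPM and PIEZO1 had 5.51 ± 0.578 times its level per kb and 5.35 times by CPM. TRPV4, the osmotic and mechanical channel known from chondrocytes, held 3, 5 and 1 counts. LRRC8A, ANO6 and CLCN3 were expressed at 51.7 ± 9.29, 49.97 ± 5.54 and 40.5 ± 6.86 CPM. All 16 genes of the YAP pathway and its targets were expressed, with CCN1 at 186 ± 7.35 CPM, CCN2 at 185 ± 6.56 CPM, WWTR1 (TAZ) at 105 ± 6.32 CPM and CRIM1 at 101 ± 20.9 CPM. The early response genes PHLDA1 (190 ± 30.8 CPM), FOSL1 (175 ± 14.4 CPM), IER3 (167 ± 26.6 CPM), DUSP6 (134 ± 23.2 CPM) and JUN (121 ± 23.2 CPM) led a list with 24 of 28 expressed, or 85.7%.

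Nuclear genes of the respiratory chain were expressed nearly whole. Both they and the genes of glycolysis were above the 53.7% expressed among all protein-coding genes. Of 34 glycolysis genes 23 were expressed, or 67.6%, with PKM at 2710 ± 41.0 CPM, ENO1 at 1888 ± 152, TPI1 at 1787 ± 104 and ALDOA at 1121 ± 66.4. LDHB, the lactate dehydrogenase subunit of oxidative tissues, held 6049, 6025 and 6648 counts against 3810, 3688 and 3815 of LDHA, the subunit of glycolytic tissues, and per kb LDHB had 2.60 ± 0.125 times the level of LDHA, with 1.65 by CPM. HK1 had 6.03 ± 2.03 times the level of HK2, PFKP 2.21 ± 0.128 times that of PFKL and SLC2A1, a glucose transporter, 3.60 ± 0.448 times that of SLC2A3, all per kb and all above 1 in each library. By CPM these 3 ratios were 3.57, 2.01 and 3.37. Of 82 nuclear genes for respiratory chain subunits 78 were expressed, including all 36 of complex I. COX4I1 reached 1053 ± 108 CPM, NDUFB9 918 ± 94.9, UQCR11 789 ± 137, NDUFS5 685 ± 49.2 and NDUFA13 660 ± 73.0. The 4 not expressed were COX6B2, COX6A2, COX7A1 and COX4I2. The 37 genes of the mitochondrial chromosome in the table had 0 counts in the 3 libraries, so the part of the chain that mitochondria encode was not measured. Iron and redox genes were expressed in 32 of 36 cases, with FTL at 3010 ± 280 CPM, FTH1 at 2766 ± 137 CPM, the metallothionein MT2A at 1964 ± 41.0 CPM, PRDX1 at 1024 ± 14.6 CPM and thioredoxin (TXN) at 848 ± 176 CPM.

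Protein folding and the cytoskeleton supplied many of the most counted genes outside the ribosome. All 31 chaperone genes were expressed, against 53.7% of all protein-coding genes. HSP90AB1 had 1.63 ± 0.222 times the level of HSP90AA1 per kb and 1.28 times by CPM. Of 36 actin and myosin system genes 30 were expressed, or 83.3%. ACTG1 stood at 2613 ± 88.5 CPM, PFN1 at 2461 ± 242, TMSB10 at 1727 ± 155 and MYL6 at 1293 ± 162. ACTB had 3.44 ± 0.116 times the level of ACTG1 per kb and 2.92 times by CPM. The alpha tubulin TUBA1B reached 2590 ± 194 CPM and TUBA1C 1552 ± 34.0 CPM. S100A6 held 19065, 23694 and 21972 counts, or 3819 ± 669 CPM, with S100A11 at 722 ± 23.7 CPM and S100A10 at 306 ± 18.1 CPM. ANXA2, the partner of the S100A10 protein, stood at 940 ± 56.2 CPM and ANXA5 at 217 ± 14.5 CPM.

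Of 12 genes known from fetal tissue and tumours 6 were expressed, or 50%, near the 53.7% of all protein-coding genes. These were the chromatin proteins HMGA1 at 880 ± 20.9 CPM and HMGA2 at 113 ± 7.06 CPM, the RNA-binding proteins IGF2BP2 at 158 ± 3.83, IGF2BP1 at 98.8 ± 17.7 and IGF2BP3 at 37.4 ± 3.48, and PEG10 at 11.6 ± 1.90 CPM. Histone genes of the replication-dependent class, whose mRNAs have no poly(A) tail in cycling cells, were expressed in 18 of 69 cases, against all 12 of the replacement class. H4C3 alone took 15034, 14234 and 13759 counts, or 2526 ± 190 CPM, with H1-2 next at 207 ± 32.8 CPM. H4C3 had 18.2 ± 2.21 times the level of H1-2 per kb and 12.2 times by CPM. Histone genes have near copies, and H2AC18 and H2AC19 held the same 151, 152 and 171 counts, so values of single copies are uncertain.

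Markers of other cell types were mostly at or near 0. Expressed shares ran from 0% in the erythroid and hepatocyte lists to 35.7% in the neuronal list, against 53.7% of all protein-coding genes. Of 8 erythroid genes and 8 hepatocyte genes none was expressed. Albumin (ALB), APOB, TTR and AFP had no count, nor had HBB, HBG1, HBG2, ALAS2 and SLC4A1. Of 16 leukocyte markers 3 were expressed, LAPTM5 at 38.0 ± 1.95 CPM, CORO1A at 10.9 ± 1.99 and CSF1R at 2.84 ± 0.738, while CD3E, CD3D, CD4, MS4A1 and TYROBP had no count and the pan-leukocyte gene PTPRC held 2, 0 and 0. The leukocyte list summed to 52.3, 60.5 and 58.1 CPM, so it was at much the same level in the 3 libraries. Of 12 endothelial markers EGFL7 (42.5 ± 8.35 CPM) and ERG were expressed, and TEK, CLDN5 and PLVAP had no count. PECAM1 held 9, 6 and 11 counts and CDH5 held 0, 4 and 1.

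The neuronal list gave 5 of 14, with UCHL1, a deubiquitinase, at 234 ± 14.4 CPM, the tubulin TUBB3 at 220 ± 15.3 CPM, ENO2 at 36.0 ± 4.19, SNAP25 at 5.34 ± 3.46 and GAP43 at 4.18 ± 0.831. RBFOX3 and NEFL, which define neurons, had no count. The slow muscle troponin TNNT1 held 411, 538 and 447 counts, or 82.5 ± 17.9 CPM, and titin (TTN) was the other expressed member of 13, with no count for MYOD1, MYF5, MYOG, MYF6, DES, TNNT3 or TNNI2. Squamous genes expressed included LAMB3 (63.8 ± 12.2 CPM) and PERP (47.4 ± 3.54 CPM), and KRT5, KRT6A, IVL and SPRR1B had no count. PPARG was the single expressed adipocyte marker of 8 at 14.8 ± 4.41 CPM, with ADIPOQ at no count, and MITF the single melanocyte marker of 7 at 5.54 ± 1.72 CPM, with MLANA, TYR, DCT, SOX10 and TYRP1 at no count. NANOG and SALL4 were the expressed embryonal genes, at 3.61 ± 1.3 and 3.30 ± 1.21 CPM, of 8 listed, and LIN28A had no count.

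Some familiar genes were at or near 0 where another gene lies over their end, and this was looked at after their values had been seen. Of 79 ribosomal protein genes, close paralogs set aside, 76 stood between 581 and 6556 CPM. The other 3 were RPS10 at 30.5 CPM, RPL36A at 8.87 CPM and RPL17 at 2.59 CPM. In each of these, most of the last 500 bases of the transcript were covered by exons of another annotated gene, a read-through gene in each case, against 3 of the other 76. MIF and EIF4A1 had no count, TYMS held 2, 4 and 7 counts and PPIB, a chaperone of collagen, held 35, 39 and 44, or 6.93 ± 0.920 CPM. Exons of MIF-AS1, SENP3-EIF4A1, ENOSF1 and SNX22 overlap these 4 genes in that order. The last 500 bases were covered for 42% in EIF4A1 and in full in the other 3. FTH1 and RPL10 also have that stretch fully covered, yet stood at 2766 and 1980 CPM. CTNNB1, KRT19 and COL1A2, by contrast, have no such overlap and were near 0 all the same. Over all protein-coding genes the expressed share was 54.0% of 17245 genes with no overlap of the last 500 bases, 58.6% of 1285 with some and 43.2% of 558 with that stretch fully covered. Levels of overlapped genes are therefore uncertain here, and the part of overlap in them was not tested.

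The 3 control libraries were close to each other but not within counting error. Pearson's r of log2(CPM + 1) between libraries, across the 10812 expressed genes, was 0.973 for replicates 1 and 2, 0.975 for 1 and 3 and 0.973 for 2 and 3, as a description over genes that are not independent. Between 347 and 413 genes in a pair differed by over 2-fold, or 3.21% to 3.82%. The common biological coefficient of variation was 17.3%. The median CV of CPM fell from 31.1% for genes with a mean of 10 to 30 counts, where counting alone gives 21.5%, to 7.72% for those above 3000 counts, where counting gives 1.28%.

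**Figure D5:**
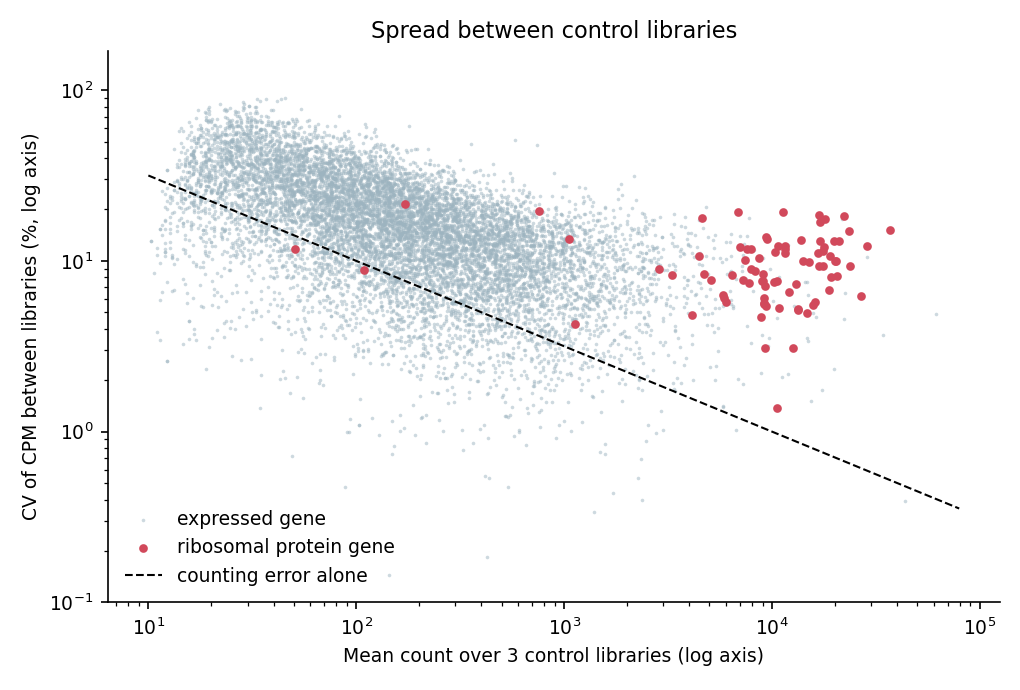
CV of CPM between the 3 control libraries (percent, log axis) against the mean count (log axis) of each expressed gene, with ribosomal protein genes in red and the CV from counting error alone as a dashed line. Most genes lie above the dashed line, and the gap is widest among the most counted genes, where the ribosomal protein genes sit.

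Ranked by chi-square per degree of freedom, a measure that favours well-counted genes, the first genes were mostly those of ribosomal proteins. The first 12 were RPLP1, RPL35, S100A6, RPS29, RPS21, RPS2, RPL36, RPS18, RPL10, NCL, RPL32 and RPLP2. By CV the class stood less apart, as its expressed genes had a median of 9.27%, beside 7.72% for all genes above 3000 counts. RPL35 stood at 3215, 4648 and 3869 CPM in replicates 1, 2 and 3. Nucleolin, NCL, had another order, at 2174, 1514 and 2131 CPM, lowest in replicate 2. Of 79 ribosomal protein genes with over 1000 counts 72 were lowest in replicate 1 and 56 highest in replicate 2, and the class took 16.01%, 18.3% and 17.5% of the counts of replicates 1, 2 and 3. Replicate 2 was also the library with the fewest counts, and whether depth, RNA quality or growth state had a part was not tested.

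By CV, among genes with a mean of at least 100 counts, the most variable was BCORL1, a corepressor, with 86, 181 and 65 counts and a CV of 63.6%. PPIH, a spliceosomal isomerase, held 334, 483 and 931 counts, a CV of 50.7%, at 102 ± 51.8 CPM. At the other end were the repressor ZBTB7A (155.7 ± 0.106 CPM), the glutamine synthetase GLUL (25.2 ± 0.0364 CPM), the mitochondrial dismutase SOD2 (74.8 ± 0.139 CPM), SURF4 (245 ± 0.834 CPM) and ACTB, whose CV was 0.391%. With 3 libraries some genes of 10812 fall together by chance, and these genes were named after their values had been seen. All 18 genes of a list of common reference genes were expressed, against 53.7% of all protein-coding genes. Among them GAPDH had a CV of 4.92% and B2M, as given above, an SD of 82.9 CPM on a mean of 785.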

How the data were processed

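The values are whole read counts by Entrez gene ID, deposited by the authors in 1 table, of which only the 3 control columns were used. The submitters' processing notes name HISAT2, Subread, featureCounts and GRCh38 and no version. Not given in the sources used here are the strand setting, the annotation release and the treatment of molecular identifiers, and counts may not be independent molecules. A RefSeq table of GRCh38.p14 named 27745 of 28395 IDs, and the 650 others took 0.0281% to 0.0306% of counts.

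CPM was scaled by TMM factors of the 3 control libraries (edgeR 4.0.16, R 4.3.3), whose dispersion estimate, with an intercept only, gave the biological coefficient of variation. Transcript length and exon overlap came from GENCODE release 29, as the longest principal transcript of each gene. Promoter windows came from RefSeq. No group was compared and no test was made, so no p-value is given. Steps across genes were tested on simulated data.

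The text names the 30 expressed genes with the highest CPM, up to 5 expressed members of each of 58 gene lists (all where 6 or fewer were expressed), members at 0 that define a cell type, expressed HOX, SOX, TBX and PAX genes, and the 12 genes with the highest chi-square per degree of freedom. Some of these are not reported here. Pairs compared per kb, genes ranked by CV and genes near 0 were named after their values were seen. The members and lists were chosen with earlier results of these data known. Genes of the Y chromosome were left out of the lists. Alternatives were other count minimums, scalings (RLE of DESeq2 1.42.0, library size), thinning, genes left out, levels per kb and leaving out each library.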

Additional observations from a re-analysis of the deposited data

How the results depend on the processing

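The number of expressed genes ran from 8115 at a minimum of 50 counts to 13103 at 1 count, and from 11048 to 11223 with 1 library left out. Cartilage matrix genes stayed at 0 of 24 except at a minimum of 1 count, where 2 passed. Some marker calls lay near the threshold. At a minimum of 20 counts expressed members fell from 2 to 0 in the embryonal list and from 1 to 0 in the melanocyte list. They fell from 2 to 1 in the endothelial and muscle lists and from 5 to 3 in the neuronal list. Shares of the top 10, 100 and 1000 genes became 6.28%, 21.0% and 55.1% without ribosomal protein and noncoding genes, and 11.3%, 43.1% and 77.6% per kb. Of the 30 genes with the most CPM, 18 were also among the top 30 per kb, and 10 were kept without ribosomal protein and noncoding genes. The biological coefficient of variation was 23.5% with no filter on low counts and 13.8% among genes with mean counts from 100 up, and 16.9% to 17.8% with 1 library left out. The median chi-square per degree of freedom between libraries, 5.13 with 3 libraries, was 3.20 to 3.64 with 2. Spearman's rho between CPM and transcript length over expressed genes was -0.14, and -0.039 at a minimum of 1 count. Scaling by RLE or library size moved none of 889 listed expressed genes by over 1 SD. Leaving out 1 library moved the mean CPM of 5 of them by over 1.5 times: ITGB3 (5.23 to 2.78) and FOXS1 (4.36 to 2.66) without replicate 1, HOXC11 (3.15 to 1.79) without replicate 2, and FOXN2 (13.8 to 9.04) and EPHB3 (3.57 to 2.30) without replicate 3. A count of 10 stood for 1.68 to 1.91 CPM, so depth kept genes below that from meeting the rule. No paired analysis was possible because only 1 group was described and no test was made.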
